A study of Mus musculus with 11 samples.

Results

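The genes described here are 5 small leucine-rich proteoglycans, Dcn, Lum, Ogn, Bgn and Fmod, and the 5 lysyl oxidases, Lox, Loxl1, Loxl2, Loxl3 and Loxl4. These 10 genes, of 53465 in the count files, were chosen by family, with earlier results of these data known. Among them Loxl1 was selected on its higher counts in withdrawn mice, so its difference between groups is a description and carries no test. RNA was sequenced from CRF1+ cells of the medial prefrontal cortex (mPFC), sorted by fluorescence from adult male CRF1:GFP mice, a reporter line in which the regulatory sequence of the CRF receptor 1 gene drives GFP. Withdrawn mice (n = 5) had inhaled ethanol vapor intermittently for weeks, had been injected with ethanol and with pyrazole, which inhibits alcohol dehydrogenase, and were several days into forced abstinence. Naïve mice (n = 6) breathed air and also received pyrazole. Each library came from 1 mouse, and the comparison asks how withdrawal altered the transcriptome of these cells.

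Small leucine-rich proteoglycans are secreted proteins whose curved leucine-rich core binds collagen fibrils and growth factors, and several carry chondroitin, dermatan or keratan sulfate chains. Lysyl oxidases are copper-dependent secreted enzymes that oxidize lysines of collagen and elastin, the first step of their covalent cross-linking. In brain, transcripts of both families are best known from fibroblasts of the meninges and large vessels, and the parenchymal matrix holds little fibrillar collagen.

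The total count on genes was between 7351567 and 22244869 per mouse, and 3 counts in a library correspond to 0.135 to 0.408 CPM (counts scaled to the normalized library size), a floor that covers counting error only. Crhr1, which encodes the receptor that marks the sorted cells, averaged 92.7 ± 21.5 CPM in naïve mice (SD, n = 6) and 89.3 ± 33.6 CPM in withdrawn mice (SD, n = 5). Withdrawn mice 3, 4 and 5 carry a source name with the word control, and the series description counts 5 controls and 6 ethanol animals, the reverse of the numbers used here. Each mouse was grouped by its recorded treatment. A pair of libraries stood apart. Naïve mouse 5 had the fewest detected genes (15585, against 22551 to 31830 in withdrawn mice) and no count for 8 of the 10 genes, and withdrawn mouse 2 had far lower counts of several of the 10 genes than the other withdrawn mice. For each gene named with a test whose call by edgeR changed without withdrawn mouse 2, that value is also given.

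Of the 10 genes, 4 (Ogn, Bgn, Fmod and Loxl4) had an entry in the RefSeq promoter table of GRCm38.p6. The 150 bases before each RefSeq start are printed for these 4 genes because they had an entry. That start is not always the gene start printed below. The Ogn window ends at 49608014, and the Ogn coordinates below begin at 49608046. Ogn, Bgn and Fmod had the highest mean levels per kilobase of exon of the 10 genes in withdrawn mice, while Loxl4 was at or below 0.99 CPM in every mouse. How the sequences relate to these levels was not tested. Capitals mark GGGCGG on either strand, the GC box, and overlapping copies run together.
Ogn (chr13:49607865-49608014, plus strand): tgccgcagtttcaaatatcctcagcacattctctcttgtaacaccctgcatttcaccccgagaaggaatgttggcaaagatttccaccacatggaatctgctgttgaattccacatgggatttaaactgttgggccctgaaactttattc
Bgn (chrX:73483451-73483600, plus strand): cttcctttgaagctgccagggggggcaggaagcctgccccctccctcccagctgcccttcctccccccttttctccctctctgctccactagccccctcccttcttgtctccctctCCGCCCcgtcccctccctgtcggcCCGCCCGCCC
Fmod (chr1:134037104-134037253, plus strand): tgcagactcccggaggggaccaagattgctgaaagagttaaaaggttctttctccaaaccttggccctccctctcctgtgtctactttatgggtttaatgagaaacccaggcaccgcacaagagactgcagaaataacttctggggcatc
Loxl4 (chr19:42612807-42612956, minus strand): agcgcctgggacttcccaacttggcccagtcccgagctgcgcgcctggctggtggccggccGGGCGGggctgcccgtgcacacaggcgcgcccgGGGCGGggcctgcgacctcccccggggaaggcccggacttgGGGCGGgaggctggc
The GC content was 44% for Ogn, 70% for Bgn, 49.3% for Fmod and 79.3% for Loxl4, beside a median of 54% over 32851 promoter windows of the same length. Bgn held 3 GC boxes, 2 of them overlapping, and Loxl4 also held 3, whereas the Ogn and Fmod windows held none, and 28.6% of all windows held at least 1. None of the 4 windows held TATAAA, which 7.57% of all windows held on either strand, or TGANTCA, the AP-1 motif, which 4.24% held.

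In naïve mice every one of the 10 genes was low. Per kilobase of exon the order of the mean levels was Ogn, Bgn, Fmod, Lum, Dcn, Loxl3, Loxl4, Loxl2, Loxl1 and Lox. Ogn had 1.14 ± 1.28 CPM per kilobase and Dcn had 0.430 ± 0.292 (SD, n = 6), compared with 37.7 CPM per kilobase for Crhr1 and 266 for Slc17a7, the vesicular glutamate transporter of cortical pyramidal neurons. Neighbours among the first 5 genes did not differ beyond their spread, since each was above the next in only 2 to 4 of the 6 mice. Loxl3 was above Loxl4 in 5 of 6 mice, and the genes after Loxl4 were each above the next in 1 or 2 mice. The order depended on length, and per kilobase of coding length Bgn came before Ogn, and Dcn before Fmod and Lum.

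**Figure D1:**
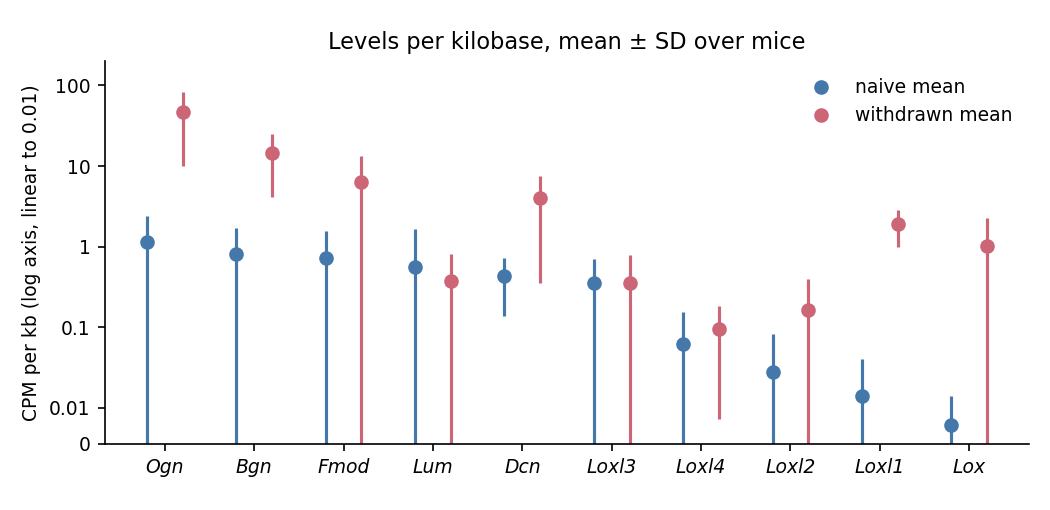
Mean CPM per kilobase of merged exons for the 10 genes in naïve (blue, n = 6) and withdrawn (red, n = 5) mice, on a log axis that is linear below 0.01, with bars of 1 SD over mice that are cut at 0. Genes stand in the order of their naïve means, from Ogn at 1.14 to Lox at 0.0053, and the withdrawn mean of Ogn lies at 46.9.

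In withdrawn mice, transcripts of Ogn, Bgn, Dcn and Fmod were higher on average, Lum was lower on average, and Loxl3 had nearly equal means. Of the 10 genes, 6 passed the low-count filter, namely Dcn, Ogn, Bgn, Fmod, Loxl1 and Loxl3. None of the 5 tested here, leaving Loxl1 aside, was called by edgeR's quasi-likelihood test at an adjusted p of 0.05 and a log2 fold change beyond 0.6, thresholds that 0.00585% of all tested genes (1 of 17093) met. An unadjusted p under 0.05 with a higher level was found for 4 of these 5, Ogn, Dcn, Bgn and Fmod, beside 5.00% of all tested genes. A gene passes the filter through the group in which it is high, so this share is given as a description. DESeq2's Wald test on the same counts called 3 of the 9 genes other than Loxl1, Dcn, Ogn and Lox, beside 1.66% of all genes it tested. With no low-count filter edgeR's quasi-likelihood test called Bgn and Ogn, beside 0.327% of all genes. Without naïve mouse 5 it called none, and the log2 fold changes were 2.95 for Dcn, 5.11 for Ogn, 3.88 for Bgn and 2.86 for Fmod.

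Dcn encodes decorin, which binds collagen fibrils and TGF-beta. The 6 naïve mice had 2.15, 5.22, 1.87, 2.80, 0 and 3.03 CPM. Withdrawn mice had 12.0, 5.26, 41.2, 50.8 and 6.93 CPM. All 5 withdrawn mice lay above all naïve mice, a separation in this direction that 0.690% of all tested genes showed, but withdrawn mouse 2 lay above naïve mouse 2 by a margin of 5.26 against 5.22 CPM. The log2 fold change was 3.20 ± 0.89 (SE), with an adjusted p of 0.265 by edgeR's quasi-likelihood test and 0.00891 by DESeq2's Wald test. Without the 3 mice whose labels conflict the log2 fold change of Dcn was 1.74 ± 1.24 (SE), since those were withdrawn mice 3 and 4, with the highest Dcn, and mouse 5.

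Dcn and Lum, which encodes the keratan sulfate proteoglycan lumican, lie 46984 bases apart on chromosome 10 of GRCm38 (97479609 to 97518143 and 97565128 to 97572703, both on the plus strand). Lum levels were not ordered as those of Dcn. The level in naïve mice was 0.11, 0.71, 0.09, 0.35, 0.07 and 6.85 CPM. In withdrawn mice it was 1.30, 0.67, 0, 2.58 and 0 CPM. The single highest mouse was naïve mouse 6 and the groups overlapped fully. Lum did not pass the low-count filter, and DESeq2's Wald test gave a log2 fold change of -0.52 ± 1.49 (SE) with an adjusted p of 0.952. Withdrawn mouse 3, with 883 counts of Dcn, had 0 counts of Lum. Kera (keratocan) and Epyc (epiphycan), the other proteoglycan genes of this cluster, had means of 0.0690 and 0.229 CPM in naïve mice and of 0 and 0.302 CPM in withdrawn mice.

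Ogn encodes osteoglycin, also called mimecan, and lies on chromosome 13 (49608046 to 49624501, plus strand). Naïve mice had 0.21, 2.42, 8.06, 5.71, 0 and 1.11 CPM. Withdrawn mice had 203, 0, 133, 217 and 49.1 CPM. Thus 4 withdrawn mice lay well above all naïve mice, and withdrawn mouse 2 had no count. The log2 fold change was 5.36 ± 1.24 (SE), with an adjusted p of 0.156 by edgeR's quasi-likelihood test and 0.0247 by DESeq2's Wald test. Without withdrawn mouse 2 it was 5.67 ± 0.88 (SE) and was called (edgeR's quasi-likelihood test, adjusted p = 0.00846), as were 1.06% of all genes tested in that fit.

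Omd (osteomodulin), Aspn (asporin) and Ecm2, proteoglycan genes of the same chromosome 13 cluster, had lower levels than Ogn. Omd had 5 counts in total in naïve mice and 1.08, 0.45, 1.26, 10.1 and 1.20 CPM in withdrawn mice, all above the naïve maximum of 0.27 CPM. Omd did not pass the low-count filter, and DESeq2's Wald test called it higher (adjusted p = 0.00444). Aspn had a log2 fold change of 3.00 ± 1.35 and Ecm2 of 2.41 ± 1.34 (SE), with adjusted p of 0.671 and 0.777 by edgeR's quasi-likelihood test. For Aspn the mean of the withdrawn mice rested on withdrawn mouse 4, at 25.9 CPM against at most 4.11 CPM in the other withdrawn mice.

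Bgn encodes biglycan, the closest relative of decorin, and lies on chromosome X (73483602 to 73495933, plus strand). Naïve mice had 0, 2.97, 4.41, 13.05, 0 and 9.45 CPM. Withdrawn mice had 151, 2.01, 99.2, 146 and 47.3 CPM. The same 4 withdrawn mice as for Ogn were above all naïve mice, and withdrawn mouse 2 was within the naïve range. The log2 fold change was 4.14 ± 1.11 (SE), with an adjusted p of 0.256 by edgeR's quasi-likelihood test and 0.0962 by DESeq2's Wald test. Without withdrawn mouse 2 it was 4.44 ± 0.96 (SE) and called, with an adjusted p of 0.0466 by edgeR's quasi-likelihood test.

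Fmod encodes fibromodulin, which binds collagen and lysyl oxidase, and lies on chromosome 1 (134037254 to 134048277, plus strand). Naïve mice had 7.41, 2.80, 1.31, 0.06, 0 and 2.90 CPM. Withdrawn mice had 32.9, 0, 7.80, 55.6 and 8.42 CPM. Withdrawn mice 3 and 5 exceeded naïve mouse 1 by little, and withdrawn mouse 2 had no count. The log2 fold change was 3.12 ± 1.29 (SE) and no fit called it (adjusted p = 0.614 by edgeR's quasi-likelihood test and 0.239 by DESeq2's Wald test). Of its neighbours, Prelp, another collagen-binding family member, had a log2 fold change of 2.89 ± 1.17 (SE, adjusted p = 0.593 by edgeR's quasi-likelihood test), and Optc (opticin) had its highest level, 4.70 CPM, in withdrawn mouse 2.

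**Figure D2:**
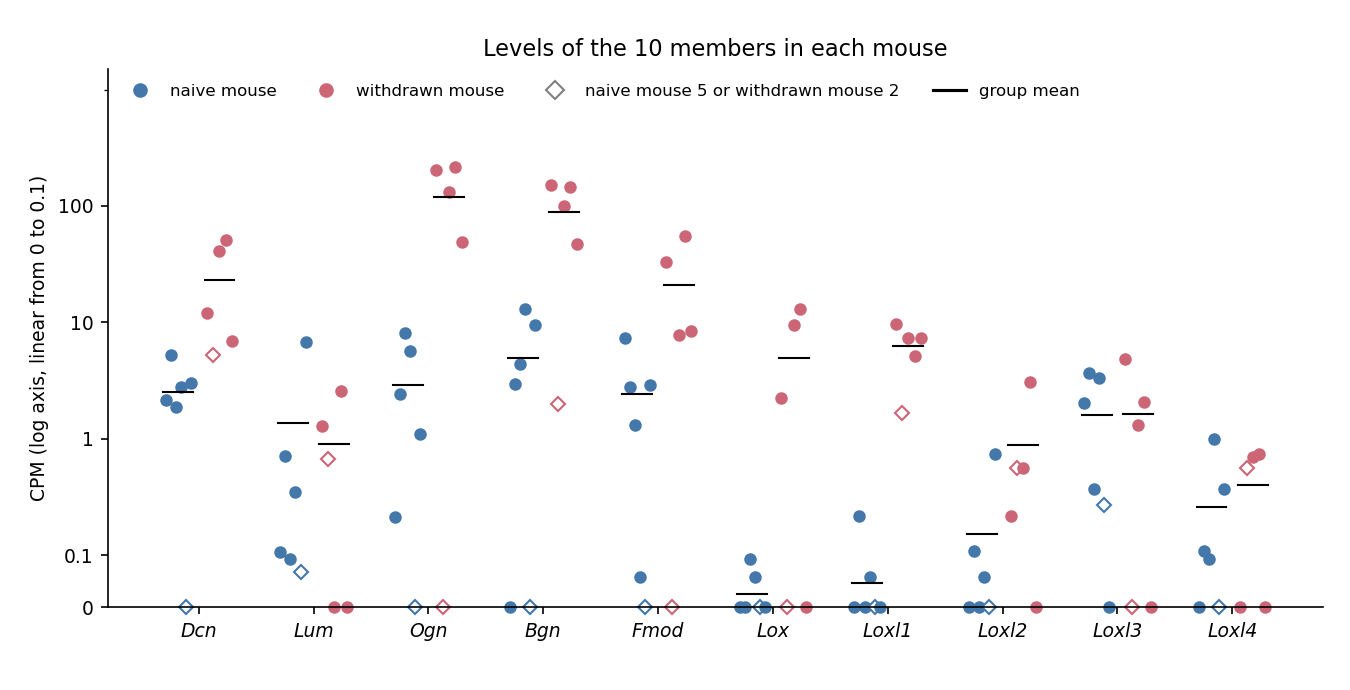
CPM of the 10 genes in each of 6 naïve (blue) and 5 withdrawn (red) mice, on a log axis that is linear from 0 to 0.1, with group means as bars and naïve mouse 5 and withdrawn mouse 2 as open diamonds. For Ogn, Bgn and Fmod 4 withdrawn mice lie above all naïve mice and withdrawn mouse 2 lies at 0, 2.01 and 0 CPM, and for Dcn and Loxl1 all 5 lie above.

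The proportions of the proteoglycans differed between withdrawn mice. Per kilobase of exon, Ogn was 38.3 times as high as Dcn in withdrawn mouse 1, 7.34 times in mouse 3, 9.72 times in mouse 4 and 16.1 times in mouse 5. Withdrawn mouse 2 had no Ogn count. Bgn was 12.0 times as high as Dcn per kilobase in mouse 1, 0.367 times in mouse 2, 2.30 times in mouse 3, 2.76 times in mouse 4 and 6.53 times in mouse 5. Mouse 1 thus had the most Ogn and Bgn relative to Dcn, while mice 3 and 4 had the highest Dcn. In the 5 naïve mice with a Dcn count, the ratio of Ogn to Dcn per kilobase ran from 0.228 to 9.78.

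Among the lysyl oxidases, Loxl1 and Lox were nearly absent from naïve mice. Loxl1, which acts mainly on elastic fibres, lies on chromosome 9 (58287738 to 58313186, minus strand) and had 0, 4, 0, 1, 0 and 0 counts in naïve mice. In withdrawn mice it had 135, 15, 158, 42 and 103 counts, or 9.72, 1.68, 7.38, 5.16 and 7.29 CPM. All 5 withdrawn mice were above all naïve mice, and withdrawn mouse 2 was the lowest of the withdrawn mice here too. The fitted log2 fold change was 6.69 ± 1.11 (SE) and rests on 5 naïve counts. This pattern is the one on which Loxl1 was selected.

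Lox, the founding member of the family, lies on chromosome 18. It had 0, 0, 1, 1, 0 and 0 counts in naïve mice and 31, 0, 202, 106 and 0 counts in withdrawn mice. Only withdrawn mice 1, 3 and 4 had any count of Lox among the withdrawn mice, so the groups overlapped at 0. Its withdrawn mean was 4.94 ± 5.95 CPM (SD, n = 5). Lox did not pass the low-count filter, and DESeq2's Wald test called it higher (adjusted p = 0.00255). Withdrawn mouse 5 had 103 counts of Loxl1 and none of Lox.

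The other lysyl oxidases did not differ detectably. Loxl3 had a log2 fold change of 0.03 ± 1.37 (SE, adjusted p = 0.998 by edgeR's quasi-likelihood test), with naïve mice from 0 to 3.68 CPM and withdrawn mice from 0 to 4.83 CPM, and its sign changed between settings. Exons of Htra2 on the opposite strand share 535 of the 4603 exonic bases of Loxl3, and no source used here says whether counting used strand, so Loxl3 counts are uncertain. Loxl2 and Loxl4 did not pass the low-count filter. The highest level of Loxl2 was 3.07 CPM in withdrawn mouse 4, against 0.74 CPM in the highest naïve mouse, and 301 of its 5405 exonic bases overlap the antisense gene Gm27177. Loxl4 stayed at or below 0.99 CPM in all 11 mice.

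**Figure D3:**
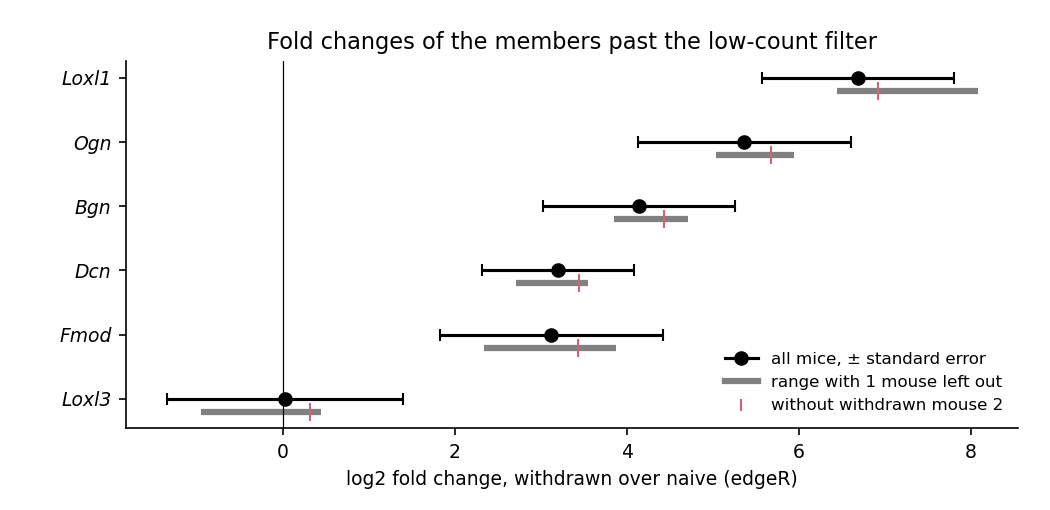
Log2 fold changes, withdrawn over naïve, from edgeR for the 6 genes past the low-count filter, with bars of 1 SE (black), the range when 1 mouse is left out (grey) and the value without withdrawn mouse 2 (red tick). Estimates run from 0.03 for Loxl3 to 6.69 for Loxl1, which was selected on this difference.

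Across mice, withdrawn mouse 4 was highest for 5 of the 10 genes (Dcn, Ogn, Fmod, Lox and Loxl2) and withdrawn mouse 1 for 3 (Bgn, Loxl1 and Loxl3). The summed level of the 5 proteoglycans was 399, 7.95, 281, 472 and 112 CPM in withdrawn mice and at most 23.3 CPM in naïve mice. Withdrawn mouse 2 thus fell within the naïve range of the sum. Withdrawn mouse 4 also had the smallest library and the largest share of reads outside annotated genes, 48.1%, and the part of these in its values was not tested.

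The genes most like Dcn in pattern, by Pearson correlation of log2 CPM over 11 mice after subtracting each group mean, were Glb1l (r = 0.969), 4930480K23Rik (r = 0.968), Nexn (r = 0.968), Cep135 (r = 0.950) and Ube4a (r = 0.946). Those most like Loxl1 were Ghsr (r = 0.954), Aldh3a1 (r = 0.948), Tmem67 (r = 0.932), Rtl9 (r = 0.923) and Sema3b (r = 0.918). None of these is a matrix proteoglycan or a lysyl oxidase. By the same measure Dcn had r = 0.662 with Bgn, 0.617 with Ogn and 0.609 with Fmod, and Loxl1 had r = 0.767 with Ogn and 0.405 with Dcn. These values describe 11 libraries that share depth and detection limits, and carry no test.

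Genes that work with these families were read from 7 related lists of 98 genes. None of the 98 was called by edgeR's quasi-likelihood test (0.00585% of all tested genes), 17 were called higher by DESeq2's Wald test (1.66%), and 13 were called without withdrawn mouse 2 (1.06%). The 17 by DESeq2 were Omd, Tsku, Chst14, Dse, Adamts2, Fkbp10, P3h4, Serpinh1, Col12a1, Col1a1, Col6a2, Efemp1, Fbln1, Fbn1, Bmp4, Tgfb3 and Tgfbr2. With no low-count filter 10 were called (0.327%), with at least 10 counts in every mouse 2 (0.283%), and at an adjusted p of 0.1 in all mice 1 (0.216%). The median log2 fold change was 0.02 over all tested genes and 3.20 over the 5 tested genes of the 10 other than Loxl1. The lists' medians lay between -0.03 and 2.84.

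Of 13 other small leucine-rich proteoglycans, 6 passed the filter, with a median log2 fold change of 2.84, and 4 had an unadjusted p under 0.05 with higher levels (Aspn, Prelp, Tsku and Podn), beside 5.00% of all tested genes. Tsku encodes tsukushi, a secreted modulator of BMP and Wnt signaling. It had 0.21 to 6.05 CPM in naïve mice (median 1.94) and 82.0, 1.12, 30.7, 65.3 and 11.0 CPM in withdrawn mice. Withdrawn mouse 2 alone was within the naïve range. The log2 fold change of Tsku was 3.98 ± 0.96 (SE, adjusted p = 0.174 by edgeR's quasi-likelihood test), with an adjusted p of 0.00113 by DESeq2's Wald test. Without withdrawn mouse 2 Tsku had a log2 fold change of 4.25 ± 0.79 (SE) and was called (adjusted p = 0.0206 by edgeR's quasi-likelihood test). Podn (podocan) had a log2 fold change of 2.80 ± 1.04 (SE, adjusted p = 0.501 by edgeR's quasi-likelihood test).

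The enzymes that attach and sulfate glycosaminoglycan chains centred near no difference. Of 15 listed, 13 passed the filter, the median log2 fold change was -0.03, and 1, Dse, had an unadjusted p under 0.05 with a higher level, a share of the list near the 5.00% of all tested genes. Dse, the epimerase that turns chondroitin into dermatan sulfate, averaged 5.80 ± 4.79 CPM in naïve mice (SD, n = 6) and 38.3 ± 25.1 CPM in withdrawn mice (SD, n = 5) (adjusted p = 0.291 by edgeR's quasi-likelihood test and 0.0229 by DESeq2's Wald test). Without withdrawn mouse 2 Dse had a log2 fold change of 3.04 ± 0.59 (SE) and was called (adjusted p = 0.0262 by edgeR's quasi-likelihood test). Chst14, the sulfotransferase that acts after it on dermatan sulfate, did not pass the filter and was called higher by DESeq2's Wald test (adjusted p = 0.0199). Chst1, a keratan sulfate sulfotransferase and the most abundant of the list, averaged 320 ± 67.0 CPM in naïve mice (SD, n = 6) and 304 ± 51.5 CPM in withdrawn mice (SD, n = 5). Csgalnact2, which starts chondroitin chains, had a log2 fold change of 0.36 ± 0.46 (SE).

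Among 13 genes that activate lysyl oxidases or supply copper, 12 passed the filter and 5 had an unadjusted p under 0.05 with higher levels (Bmp1, Pcolce, Adamts2, Fn1 and Thbs1), beside 5.00% of all tested genes. Their median log2 fold change was 1.08. Adamts2, a procollagen N-proteinase that also cleaves lysyl oxidase, had 0.47 to 6.79 CPM in naïve mice (median 3.44) and 223, 0, 78.5, 109 and 39.3 CPM in withdrawn mice. Its log2 fold change was 4.67 ± 1.05 (SE, adjusted p = 0.134 by edgeR's quasi-likelihood test). Without withdrawn mouse 2 it was 4.96 ± 0.63 (SE), and Adamts2 was called (adjusted p = 0.0036 by edgeR's quasi-likelihood test). Thbs1 (thrombospondin 1) had 181, 0, 53.5, 44.8 and 90.6 CPM in withdrawn mice and at most 4.31 CPM in naïve mice. Its adjusted p by edgeR's quasi-likelihood test was 0.137 in all mice and 0.0137, a call, without withdrawn mouse 2. Pcolce, an enhancer of procollagen cleavage, was also called without that mouse (adjusted p = 0.0482 by edgeR's quasi-likelihood test, against 0.311 in all mice). Fn1 (fibronectin) had a log2 fold change of 2.99 ± 0.97 (SE, adjusted p = 0.392 by edgeR's quasi-likelihood test).

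The genes of collagen modification and the substrates of lysyl oxidases gave the following. A list of 12 genes held those of collagen lysine hydroxylation together with others of collagen modification and folding, and all passed the filter. Of these, 5 had an unadjusted p under 0.05 with higher levels (Plod1, Fkbp10, P3h1, P3h4 and Serpinh1), beside 5.00% of all tested genes (median log2 fold change 1.07). Serpinh1, the collagen chaperone HSP47, had 0 to 12.2 CPM in naïve mice and 110, 0.45, 92.4, 123 and 44.1 CPM in withdrawn mice. Its adjusted p by edgeR's quasi-likelihood test was 0.265 in all mice and 0.0268, a call, without withdrawn mouse 2. P3h4, a scaffold of the lysyl hydroxylase complex, had a log2 fold change of 1.51 ± 0.41 (SE, adjusted p = 0.256 by edgeR's quasi-likelihood test), and Colgalt1, a collagen galactosyltransferase, one of 0.04 ± 0.20 (SE).

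Of 16 fibrillar and microfibrillar collagens, 15 passed the filter and 7 had an unadjusted p under 0.05 with higher levels, beside 5.00% of all tested genes (median log2 fold change 1.53). Col1a1, a chain of type I collagen, had 0 to 16.5 CPM in naïve mice and 378, 3.02, 151, 224 and 70.0 CPM in withdrawn mice. Its log2 fold change was 4.88 ± 1.13 (SE, adjusted p = 0.157 by edgeR's quasi-likelihood test). Col1a1 was called without withdrawn mouse 2 (5.18 ± 0.96, adjusted p = 0.0203 by edgeR's quasi-likelihood test). Col6a2 and Col6a1, chains of type VI collagen, to which biglycan and decorin bind, had log2 fold changes of 1.96 ± 0.43 and 1.53 ± 0.63 (SE), with adjusted p of 0.129 and 0.608 by edgeR's quasi-likelihood test. Of these, Col6a2 was called without withdrawn mouse 2 (2.22 ± 0.26, adjusted p = 0.00231 by edgeR's quasi-likelihood test). Col12a1, called by DESeq2's Wald test, had a log2 fold change of 2.31 ± 0.58 (SE, adjusted p = 0.202 by edgeR's quasi-likelihood test). Without withdrawn mouse 2 Col12a1 was called (2.54 ± 0.53, adjusted p = 0.0385 by edgeR's quasi-likelihood test).

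Of 13 genes of the elastic fibre scaffold, 12 passed the filter, all 12 had a positive log2 fold change, as had 51.8% of all tested genes, and 6 had an unadjusted p under 0.05 with higher levels, beside 5.00% (median 1.75). Fbln1 (fibulin 1) had 5.99 to 30.2 CPM in naïve mice and 297, 21.2, 208, 399 and 99.0 CPM in withdrawn mice. Its log2 fold change was 3.74 ± 0.62 (SE, adjusted p = 0.0729 by edgeR's quasi-likelihood test and 7.9e-07 by DESeq2's Wald test). Efemp1 (fibulin 3) had 0 to 20.5 CPM in naïve mice and 452, 0, 336, 654 and 119 CPM in withdrawn mice. Again withdrawn mouse 2 was within the naïve range for both. Without it both were called by edgeR's quasi-likelihood test, with adjusted p of 0.00231 for Fbln1 and 0.00588 for Efemp1, the latter after 0.137 in all mice.

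Of 16 receptors and ligands that small leucine-rich proteoglycans bind, 14 passed the filter and 5 had an unadjusted p under 0.05 with higher levels (Egfr, Lrp1, Tgfb3, Tgfbr2 and Bmp4), beside 5.00% of all tested genes, with a median log2 fold change of 0.86. Tlr2 and Tlr4, receptors through which free biglycan signals, did not pass the filter. Tlr2 had 0 counts in all 11 mice. Tlr4 had 7 counts in naïve mouse 3 and none in the other naïve mice, and 4, 45, 74, 7 and 44 counts in withdrawn mice, the highest level being in withdrawn mouse 2 (5.04 CPM). DESeq2's Wald test did not call Tlr4 (log2 fold change 4.66 ± 1.45, SE, adjusted p = 0.066). Bmp4, a growth factor of the TGF-beta family, had 0 to 5.33 CPM in naïve mice and 41.6, 6.04, 34.4, 60.1 and 19.5 CPM in withdrawn mice, so that all withdrawn mice were higher. Its log2 fold change was 4.02 ± 0.89 (SE, adjusted p = 0.129 by edgeR's quasi-likelihood test and 0.000229 by DESeq2's Wald test). It was called without withdrawn mouse 2 (4.27 ± 0.83, adjusted p = 0.0262 by edgeR's quasi-likelihood test). Tgfbr2 had a log2 fold change of 2.09 ± 0.61 and Lrp1, an endocytic receptor of decorin, of 0.68 ± 0.31 (SE), with adjusted p of 0.298 and 0.678 by edgeR's quasi-likelihood test.

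**Figure D4:**
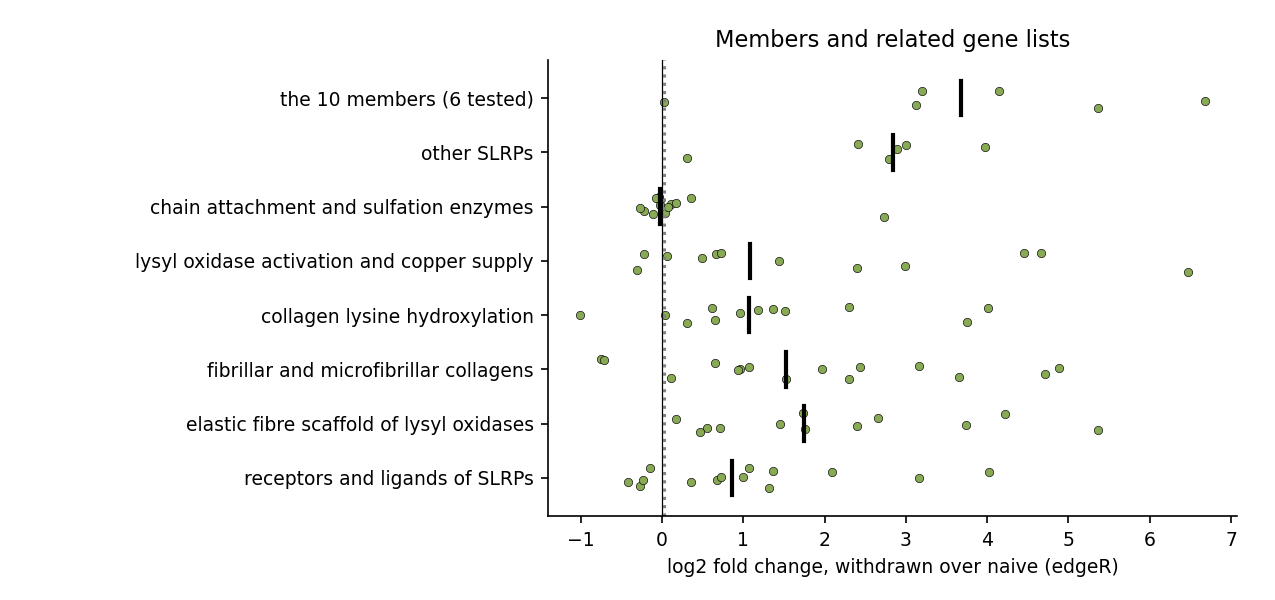
Log2 fold change, withdrawn over naïve, of each tested gene in the 10 genes and the 7 related lists, with list medians as black bars and the median of all tested genes, 0.02, as a dotted line. SLRP stands for small leucine-rich proteoglycan. The enzymes of chain attachment centre on -0.03 while the other proteoglycans have a median of 2.84.

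The summed level of meningeal and perivascular fibroblast markers was highest in the same mice as that of the proteoglycans. Of 16 listed markers, which include Col1a1 and 2 further collagen genes of the lists above, 13 passed the filter, 9 had an unadjusted p under 0.05 with higher levels (5.00% of all tested genes), none was called by edgeR's quasi-likelihood test (0.00585%) and 4 were called by DESeq2's Wald test (1.66%). Their median log2 fold change was 3.36. Their summed level was 11.5 to 81.8 CPM in naïve mice and 1485, 30.9, 759, 1092 and 267 CPM in withdrawn mice, in which withdrawn mouse 2 again fell within the naïve range. Without the 3 collagens the sum was 10.7 to 24.4 CPM in naïve mice and 384, 25.4, 261, 442 and 98.2 CPM in withdrawn mice, so that withdrawn mouse 2 then lay just above the naïve range. All 13 tested markers had a positive log2 fold change, as had 51.8% of all tested genes, but single markers did not all follow the sum. Slc6a13 was highest in withdrawn mouse 2, at 6.94 CPM, and had no count in withdrawn mice 3 and 5. Igf2, Aldh1a2 and Dpep1 of this list did not pass the low-count filter, and Igf2 averaged 0.468 CPM in naïve and 0.0916 CPM in withdrawn mice. In bulk RNA of sorted cells, more cells of a type and more RNA per cell cannot be told apart, and the part of such cells in the values above was not tested.

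Marker lists of other cell types had lower median log2 fold changes, but the sums of some were also highest in these mice. The summed level of 8 endothelial markers was 3.18 to 775 CPM in naïve and 39.5 to 651 CPM in withdrawn mice, with a median log2 fold change of -0.69. The median was 0.42 for mural cell markers, -0.21 for astrocyte, -0.31 for oligodendrocyte, 1.31 for oligodendrocyte precursor, 0.20 for microglia, -0.07 for glutamatergic neuron and 0.68 for GABAergic neuron markers. Astrocyte markers summed to 107 to 294 CPM in naïve mice and to 388, 71.5, 348, 482 and 258 CPM in withdrawn mice, so that withdrawn mice 1, 3 and 4 lay above all naïve mice. Among these markers Gja1 alone had 309, 6.38, 217, 273 and 129 CPM in withdrawn mice and at most 31.9 CPM in naïve mice. Of the 7 tested astrocyte markers, 2 had a positive log2 fold change and 5 a negative one, so the sum does not describe the markers as a class. Microglia markers summed to 8.81 to 25.2 CPM in naïve mice and to 41.3, 8.39, 37.2, 45.9 and 29.1 CPM in withdrawn mice, so that mice 1, 3, 4 and 5, the same as for the proteoglycan sum, lay above all naïve mice. The part of these cells in the proteoglycan values was not tested. Glutamatergic markers summed to 1750 to 3116 CPM in naïve mice and to 1823, 2690, 2770, 1340 and 2441 CPM in withdrawn mice. The lowest of these sums, 1340 CPM, was in withdrawn mouse 4, the mouse with the highest proteoglycan sum. The highest among withdrawn mice, 2770 CPM, was in mouse 3, whose proteoglycan sum was 281 CPM.

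**Figure D5:**
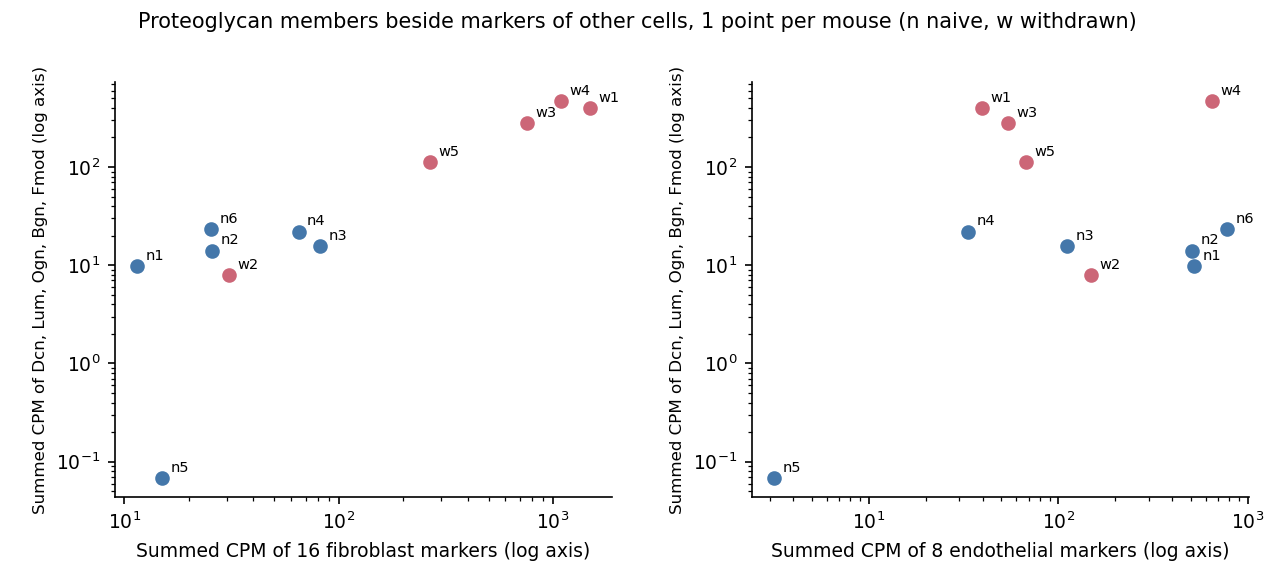
Summed CPM of Dcn, Lum, Ogn, Bgn and Fmod in each of 11 mice (n naïve, w withdrawn) against the summed CPM of 16 fibroblast markers (left) and of 8 endothelial markers (right), all on log axes. Withdrawn mice 1, 3, 4 and 5 have 267 to 1485 CPM of fibroblast markers and lie apart from all naïve mice, withdrawn mouse 2 lies among the naïve mice, and endothelial markers overlap between groups.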

How the data were processed

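RNA was isolated from FACS-sorted GFP+ mPFC cells of single CRF1:GFP mice, and libraries were made from 160 pg of RNA with a SMARTseq HT kit. The authors trimmed reads with cutadapt, mapped them with STAR to GRCm38 and used HTSeq to count them per Ensembl gene. The authors deposited raw counts, neither normalized nor pooled. The strand setting is not given in the sources used here. Reads tallied outside genes or as ambiguous or multiply mapped (18.9% to 58.0% per mouse) were left out. Symbols came from the GRCm38 annotation (53360 of 53465 identifiers matched).

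The groups were compared with the quasi-likelihood test of edgeR 4.0.16 (R 4.3.3) after TMM normalization and filterByExpr (minimum count 10, minimum total 15), and p-values were adjusted by Benjamini-Hochberg over all 17093 tested genes. CPM used TMM library sizes. The log2 CPM behind correlations used a prior count of 2. DESeq2 1.42.0, the tool the study named, was run as an alternative on every gene that had a count. Further alternatives were other normalizations, filters, thresholds and dispersion settings, a replicate block, and leaving out mice. All pairs of libraries differed by more than sampling noise. On simulated counts for this comparison (17093 genes, 200 drawn at random and changed by 3 on the log2 scale, dispersions of the real genes), edgeR recovered 123 with 1 false call. This rate holds for tested genes at large and not for the 10 genes, of which 4 did not pass the filter.

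The 10 genes and all lists were chosen with earlier results of these data known. Besides the 10 genes, those named were, per related list, genes called or else the 2 with the smallest unadjusted p and the most abundant, proteoglycan genes within 500 kb of one of the 10, and the 5 genes most correlated with Dcn and with Loxl1. Chst14, named for its step next to Dse, and Tlr4, named beside Tlr2, were named after their values were seen. So were the genes listed as called by DESeq2's Wald test and those counted at an unadjusted p under 0.05. RefSeq promoter windows came from the supplied table.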

Additional observations from a re-analysis of the deposited data

Results flagged for a closer look

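Of 38 sets of values, each a gene or a marker sum in 1 group, 7 had a highest or lowest mouse far from the rest by Dixon's criterion, for which chance gives about 1.9, or 1 in 20. Values are log2 CPM. Naïve mouse 5 was lowest for Dcn (-2.80, at 0 counts). Withdrawn mouse 2 was lowest among withdrawn mice for Ogn (-2.80, at 0 counts) and for Bgn (1.11). Naïve mouse 2, with 4 counts, was highest among naïve mice for Loxl1 (-1.46), and naïve mouse 6 was highest for Loxl2 (-0.18). For log2 summed CPM with 1 added, oligodendrocyte precursor markers were lowest in naïve mouse 5 (0) and microglia markers were lowest among withdrawn mice in withdrawn mouse 2 (3.23).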

How the results depend on the processing

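Of the 9 genes other than Loxl1, edgeR called 0, DESeq2 called 3 (Dcn, Ogn and Lox, beside 1.66%), edgeR with no low-count filter called 2 (Bgn and Ogn, beside 0.327% of all genes tested), and leaving out 1 mouse gave 0 to 2, the 2 without withdrawn mouse 2. Of the 98 related genes, edgeR called 0, DESeq2 17 (1.66% of all genes), no low-count filter 10 (0.327%), at least 10 counts in every mouse 2 (0.283%), an adjusted p of 0.1 as threshold 1 (0.216%), and leaving out 1 mouse 0 to 13, the 13 without withdrawn mouse 2 (1.06%). The cause of these changes was not tested. Other normalizations, robust dispersions, dropping the fold threshold and leaving out the 3 mice with conflicting labels called 0 of both. The log2 fold changes of Dcn, Ogn, Bgn and Fmod were positive under all 18 alternatives run for each. That of Loxl3 was negative with TMMwsp (-0.0025), with no filter (-0.0065) and in the replicate block (-0.999), and ran from -0.95 to 0.44 with 1 mouse left out. With the replicate number as a replicate block, 0 of the 9 genes and 0 of the 98 were called. Same-numbered mice are different animals whose deviations correlated between -0.20 and 0.18, so the numbers do not pair them. The median of the 10 naïve levels was 0.390 CPM per kilobase of exon, 1.03 per kilobase of coding length, and 0.261 to 0.463 with 1 mouse left out. Low counts limit Lum, Lox, Loxl2 and Loxl4, which did not pass the low-count filter and had 0 counts in some mice. The part of depth in this was not tested.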
